A study of Homo sapiens with 12 samples.

Results

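The genes described here are 10 adhesion genes of L-540 cells: ITGAL, ITGB1, ITGB2, ITGA4, ITGB7, ITGA6, ICAM3, SELPLG, RAPH1 and TNC. L-540 is an established Hodgkin lymphoma cell line. ITGAL, ITGB1, RAPH1 and TNC were chosen by their differences between treatments on these same arrays, so their values are given as a description, with no p-value, and any count of them past a threshold restates how they were chosen. The other 6 were picked as leukocyte integrins and their ligands. The genes were found by their symbol in the platform annotation, 10 of 18852 genes with a symbol on the array, and 20 probes carried one of these symbols. Only probes detected (p under 0.05) throughout at least 1 group of 3 arrays were kept. That left 8 of the 20 probes and 7 of the 10 genes, among 8079 genes tested; ITGB2, ITGA6 and ICAM3 had no kept probe. A gene that is detected in only 1 group enters this way through that group, so the kept genes are not a neutral sample.

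RNA was measured on 12 Illumina bead arrays, 3 in each of 4 groups. The groups were L-540 cells given 100 nM givinostat, an inhibitor of histone deacetylases; cells given 5 µM sorafenib, an inhibitor of several kinases; cells given both drugs at these doses, called the combination; and control cells given no drug. Exposure lasted 24 hours, and every group was the same line in the same medium. The arrays of each group are lettered A, B and C, and nothing in the labels tells separate cultures from repeats of 1, so p-values measure only the spread between these arrays, which may be technical. A flask holds many cells, so fewer cells with a transcript and less of it per cell cannot be told apart.

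Combination array B had the highest raw median intensity, 681.1, and the other 11 arrays ranged from 418.1 to 579.3. The share of probes detected was 24.6% to 30.9% on those 11 arrays and 22.4% on combination array B, so dim genes had the least room above background there. Hodgkin cell markers were present: TNFRSF8 (CD30), FUT4, GATA3, TRAF1, FSCN1 and ID2 were detected on all 12 arrays, 6 of 8 listed. Of the T-lymphocyte markers, CD2 and CD4 were detected on all 12 arrays and 4 of 8 with a probe on none. CSF1R was the only one of 6 myeloid markers detected on all 12, and none of the B-lymphocyte, fibroblast or endothelial markers was.

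Integrins are pairs of an alpha and a beta chain that bind ligands on other cells or in the extracellular matrix. ITGAL and ITGB2 encode the alpha and beta chains of LFA-1, which binds ICAM proteins, ICAM3 among them, on other leukocytes. ITGA4 pairs with ITGB1 (VLA-4) or with ITGB7, receptors for VCAM1, fibronectin and MADCAM1, and ITGA6 pairs with ITGB1 in a laminin receptor. SELPLG encodes PSGL-1, the ligand of P-selectin on which leukocytes roll. RAPH1 encodes lamellipodin, an adaptor that brings actin regulators to the leading edge of moving cells, and TNC encodes the matrix glycoprotein tenascin-C, itself a ligand of some integrins. Integrins are held inactive until talin and kindlin bind the beta chain, a step driven by the GTPase Rap1 and known as activation from inside the cell.

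The 250 bases before the annotated gene start are shown for RAPH1 and ITGB1, the picked genes that were higher with givinostat, and for TNC, which was highest with the combination. They come from RefSeq promoter windows on GRCh38.p14, which covered 7 of the 10 genes. The windows are chr2:203535302-203535551 for RAPH1, chr10:32958231-32958480 for ITGB1 and chr9:115118158-115118407 for TNC, each on the minus strand and written 5′ to 3′ toward the gene. Capitals mark matches, on either strand, to GGGCGG (a GC box) or CCGGAAG (the core bound by ETS factors); neighbouring matches may overlap.
RAPH1: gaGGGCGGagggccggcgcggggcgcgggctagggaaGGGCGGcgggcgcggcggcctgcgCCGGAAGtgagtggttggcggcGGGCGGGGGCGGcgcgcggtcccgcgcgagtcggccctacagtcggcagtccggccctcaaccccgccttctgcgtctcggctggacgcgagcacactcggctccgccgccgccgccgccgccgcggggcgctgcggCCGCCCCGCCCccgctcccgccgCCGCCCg
ITGB1: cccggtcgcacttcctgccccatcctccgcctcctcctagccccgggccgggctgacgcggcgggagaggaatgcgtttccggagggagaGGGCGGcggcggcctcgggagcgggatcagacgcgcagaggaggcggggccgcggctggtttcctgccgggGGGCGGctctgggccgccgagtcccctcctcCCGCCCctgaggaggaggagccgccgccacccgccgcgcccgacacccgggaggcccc
TNC: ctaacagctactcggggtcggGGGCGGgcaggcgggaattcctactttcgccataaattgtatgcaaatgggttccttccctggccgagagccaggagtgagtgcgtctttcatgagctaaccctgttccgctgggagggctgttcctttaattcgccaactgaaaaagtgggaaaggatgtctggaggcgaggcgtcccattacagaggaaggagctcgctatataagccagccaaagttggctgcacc
The RAPH1 window is 84.0% G or C and holds 7 GC boxes and 1 ETS core. The ITGB1 window is 78.4% G or C with 3 GC boxes, and the TNC window is 54.8% G or C with 1. Of 35116 promoter windows in the same table, 42.64% hold a GC box and 8.52% an ETS core. None of the 3 windows holds TGANTCA (AP-1), found in 6.57% of all windows, or TGTGGT (RUNX), found in 10.98%. These matches are letters in a window and say nothing of binding.

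All values that follow are log2 normalized intensities, and changes are differences between group means on that scale with the standard error (SE) of the fit. Tests used limma over all 12 arrays with Benjamini-Hochberg adjustment over the 8079 genes, and a gene was called at an adjusted p under 0.05. Where one group was below detection on all 3 arrays and the other detected on all 3, the lower level is only a bound, and the fold is given as at least the ratio to the lowest detected signal of those arrays.

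**Figure D1:**
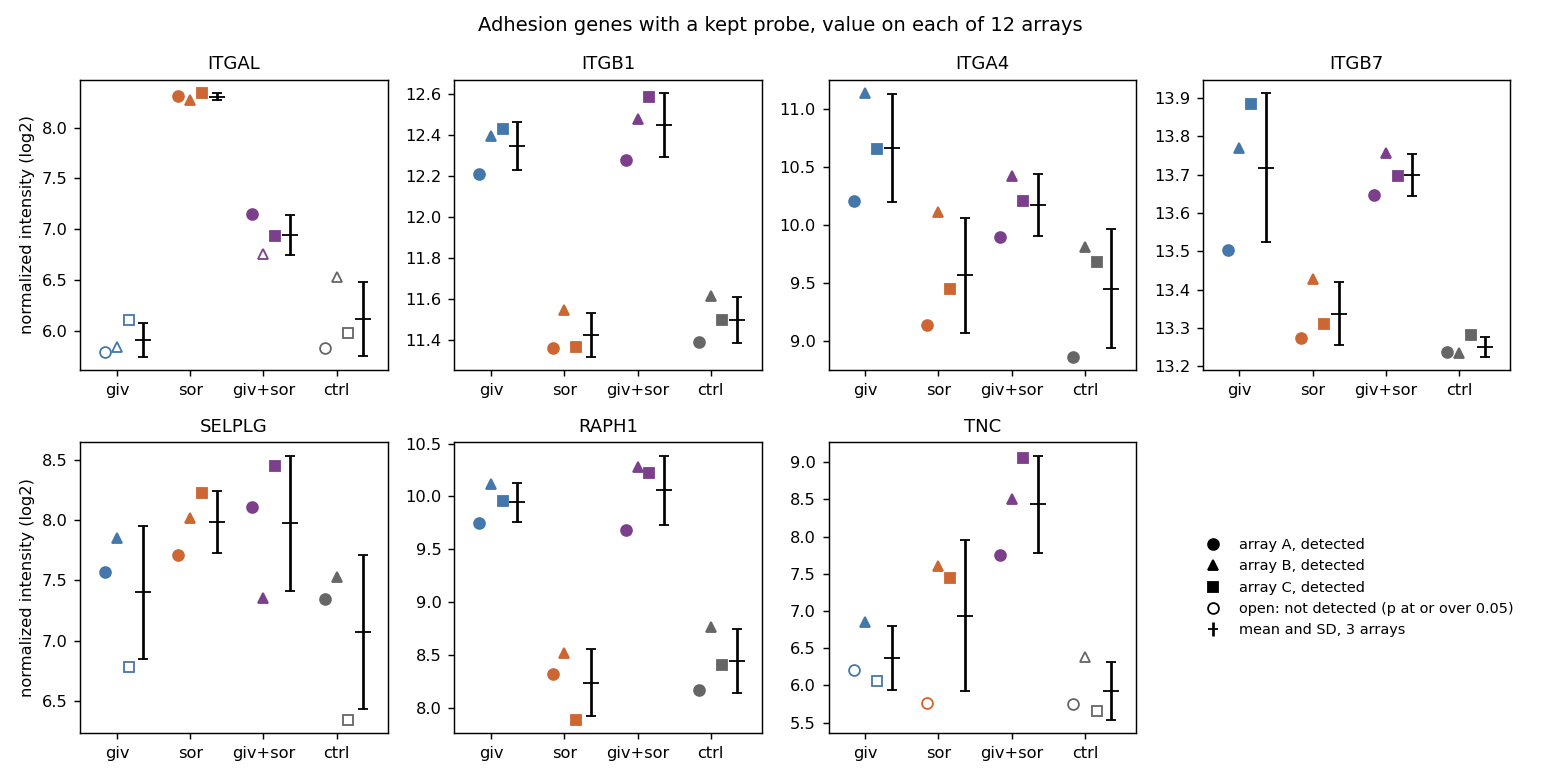
Log2 normalized intensity (y axis, a separate range for each gene and not starting at 0) of the 7 adhesion genes with a kept probe on each of 12 arrays, by group (giv, givinostat; sor, sorafenib; giv+sor, combination; ctrl, control). Symbols give the array letter, open symbols are arrays without detection, and bars are the mean and SD of 3 arrays. ITGAL is highest on the 3 sorafenib arrays, and ITGB1 and RAPH1 on the givinostat and combination arrays.

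ITGAL, the alpha chain of LFA-1, was detected with sorafenib and not in control cells. Its values were 5.79, 5.84 and 6.10 on givinostat arrays A, B and C. They were 8.31, 8.27 and 8.34 on the sorafenib arrays and 7.15, 6.76 and 6.93 on the combination arrays. Control arrays gave 5.84, 6.53 and 5.98. The sorafenib arrays lay above all others and the combination arrays came next, above every givinostat and control array, while givinostat and control overlapped. The probe was detected on 3 sorafenib arrays and 2 combination arrays (not on B), and on none of the givinostat or control arrays.

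The difference of sorafenib from control was 2.19 ± 0.18, at least 2.86-fold. The combination, with detection on 2 of its 3 arrays, differed from control by 0.83 ± 0.18 and from givinostat by 1.04 ± 0.18, both set against values below detection. Against sorafenib alone the combination was lower, with a difference of -1.36 ± 0.18, so ITGAL under both drugs stood between its levels under sorafenib and under no drug. Without combination array B, on which ITGAL was not detected, that difference was -1.27. Without background correction the sorafenib difference shrank to 0.66.

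ITGB2, the partner chain in LFA-1, had 2 dim probes and no kept one. The brighter probe gave 6.20, 5.90 and 6.56 with givinostat, 6.74, 6.94 and 7.01 with sorafenib, 6.43, 5.87 and 6.24 with the combination, and 5.98, 6.05 and 5.73 in control cells. The dimmer probe gave 5.63, 5.70 and 5.93 with givinostat, 7.29, 6.48 and 7.16 with sorafenib, 5.57, 5.55 and 5.55 with the combination, and 5.98, 5.60 and 5.90 in control cells. On both probes the 3 sorafenib arrays lay above all other arrays. Each probe was detected on 2 of the 3 sorafenib arrays and on no other array.

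In a limma fit with no filter, over 18852 genes, the difference of sorafenib from control was 0.98 ± 0.20 for the brighter ITGB2 probe (adjusted p = 0.0853) and 1.15 ± 0.21 for the dimmer one (adjusted p = 0.0388). The 2 probes thus fell on different sides of the threshold. The combination differed from sorafenib by -0.72 ± 0.20 on the brighter probe (adjusted p = 0.325) and by -1.42 ± 0.21 on the dimmer (adjusted p = 0.0369). Against control it differed by 0.26 (adjusted p = 0.712) and by -0.27 (adjusted p = 0.705), which have opposite signs. Because control arrays did not detect ITGB2, these differences are between values near background.

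**Figure D2:**
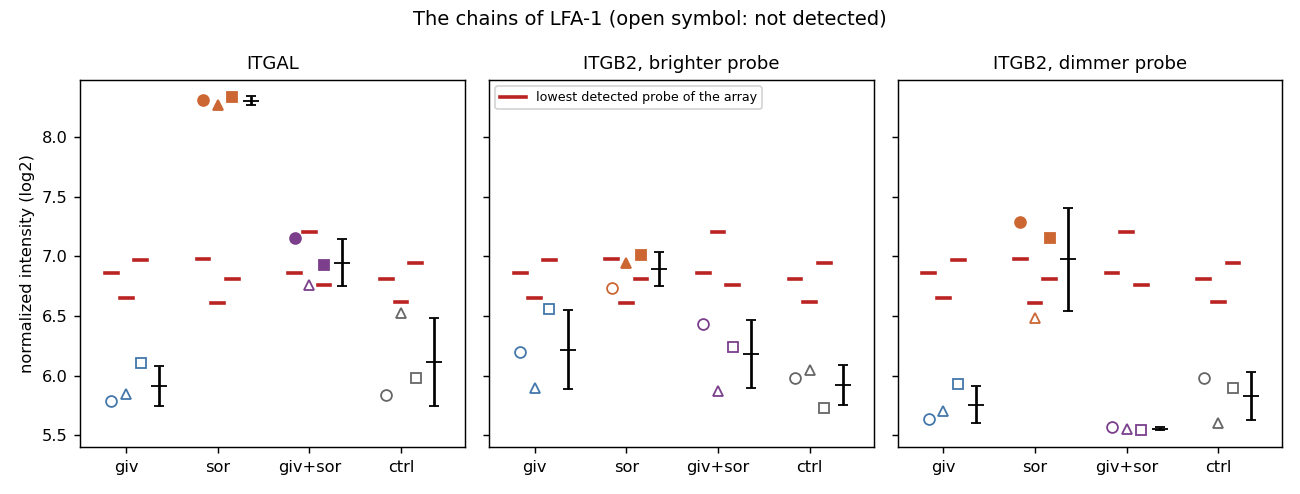
Log2 normalized intensity (y axis, not starting at 0) of ITGAL and of the 2 ITGB2 probes on the 12 arrays by group (giv, givinostat; sor, sorafenib; giv+sor, combination; ctrl, control). Circles, triangles and squares are arrays A, B and C, open where the probe was not detected; black bars are the mean and SD of 3 arrays, and red lines mark each array's lowest detected probe. ITGAL clears that line on all 3 sorafenib arrays, and each ITGB2 probe is detected on 2 of them.

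ITGB1, the beta chain shared by VLA-4 and several matrix receptors, was higher wherever givinostat was present. Its brightest probe gave 12.21, 12.40 and 12.43 with givinostat, 11.36, 11.55 and 11.37 with sorafenib, 12.28, 12.48 and 12.59 with the combination, and 11.39, 11.62 and 11.50 in control cells. All 6 arrays with givinostat lay above the 6 without it. The difference from control was 0.85 ± 0.13 with givinostat (1.80-fold), -0.08 ± 0.13 with sorafenib and 0.95 ± 0.13 with the combination (1.93-fold). Combination and givinostat arrays overlapped and differed by 0.10 ± 0.13.

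A second kept ITGB1 probe gave 11.63, 12.35 and 11.97 with givinostat, 11.54, 11.35 and 11.61 with sorafenib, 11.86, 12.26 and 12.42 with the combination, and 11.43, 11.56 and 11.41 in control cells. On this probe, too, every array with givinostat lay above those without it. Its differences from control were smaller, 0.52 with givinostat and 0.71 with the combination. The other 2 of the 4 ITGB1 probes were near background and were not kept.

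RAPH1, encoding lamellipodin, was also higher wherever givinostat was present. Its kept probe gave 9.75, 10.12 and 9.96 with givinostat, 8.31, 8.51 and 7.88 with sorafenib, 9.68, 10.28 and 10.22 with the combination, and 8.16, 8.76 and 8.40 in control cells. No array with givinostat overlapped the 6 arrays without it, and sorafenib arrays overlapped the control arrays. The difference from control was 1.50 ± 0.22 with givinostat (2.83-fold), -0.21 ± 0.22 with sorafenib and 1.62 ± 0.22 with the combination (3.07-fold). Combination and givinostat differed by 0.12 ± 0.22. Without background correction the givinostat difference was 0.83. The other 3 RAPH1 probes were near background and were not kept, so these differences rest on 1 of 4 probes. The unkept probe for the same transcript averaged 5.78 with givinostat and 5.85 in control cells. The remaining probes averaged 6.48 and 5.86 with givinostat and 5.99 and 5.75 in control cells.

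TNC, the matrix gene, was detected in control cells on no array and with the combination on all 3. Its kept probe gave 6.21, 6.86 and 6.05 with givinostat, 5.77, 7.60 and 7.44 with sorafenib, 7.75, 8.50 and 9.05 with the combination, and 5.75, 6.38 and 5.66 in control cells. Each combination array lay above every other array of the study. The sorafenib arrays disagreed: A was at the control level and not detected, while B and C were detected. Givinostat overlapped control, with detection on 1 array.

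The combination differed in TNC from control by 2.50 ± 0.47, at least 3.12-fold. It differed from givinostat by 2.06 ± 0.47 and from sorafenib by 1.49 ± 0.47, or by 0.91 without sorafenib array A. The single drugs differed from control by 0.44 ± 0.47 with givinostat and 1.01 ± 0.47 with sorafenib, detected on 2 of its 3 arrays, and the sorafenib difference was 1.59 without its array A. Without background correction the combination difference was 0.81. A second TNC probe was near background, was not kept and was detected on 1 combination array. Its group means were 6.27 with givinostat, 6.06 with sorafenib, 6.31 with the combination and 5.79 in control cells. Combination and control arrays overlapped on it, so the TNC differences rest on 1 of 2 probes.

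ITGA4, the alpha chain of VLA-4, was tested, since its response did not choose it. It gave 10.21, 11.14 and 10.66 with givinostat, 9.13, 10.11 and 9.45 with sorafenib, 9.89, 10.43 and 10.20 with the combination, and 8.86, 9.81 and 9.68 in control cells. All 3 givinostat arrays and all 3 combination arrays lay above the control arrays, and the sorafenib arrays overlapped them. The givinostat difference was 1.22 ± 0.33 (2.33-fold) and did not pass (adjusted p = 0.17, limma). Within letters A, B and C it was 1.35, 1.33 and 0.98, and with the letter as a block over the givinostat, sorafenib and control arrays it passed (adjusted p = 0.019, limma). That fit called 146 of all 8079 genes with givinostat, where the fit without the block called 6 higher and 1 lower. The pairing by letter was taken from these data and not from the labels. The combination difference was 0.73 ± 0.33 (adjusted p = 0.203), or 0.43 without control array A, and the sorafenib difference 0.12 ± 0.33 (adjusted p = 0.882).

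ITGB7, the other beta chain that pairs with the ITGA4 product, gave 13.50, 13.77 and 13.88 with givinostat, 13.27, 13.43 and 13.31 with sorafenib, 13.65, 13.76 and 13.70 with the combination, and 13.24, 13.23 and 13.28 in control cells. The givinostat and combination arrays all lay above the control arrays. The givinostat difference was 0.47 ± 0.12 (1.38-fold, adjusted p = 0.157, limma), and the combination difference 0.45 ± 0.12 (1.36-fold, adjusted p = 0.0502, limma), just outside the threshold. The combination difference was called under 6 of 21 alternatives, among them no background correction (0.43, adjusted p = 0.0139) and leaving out givinostat array A (adjusted p = 0.037), and the givinostat difference under 2 of 22. Sorafenib differed by 0.09 ± 0.12 (adjusted p = 0.755).

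SELPLG, the P-selectin ligand, gave 7.57, 7.85 and 6.78 with givinostat, 7.71, 8.01 and 8.23 with sorafenib, 8.11, 7.36 and 8.45 with the combination, and 7.35, 7.53 and 6.35 in control cells. Array C of givinostat and array C of control were not detected. The 3 sorafenib arrays lay above the 3 control arrays, and the combination overlapped control. The difference was 0.33 ± 0.37 with givinostat (adjusted p = 0.779), 0.91 ± 0.37 with sorafenib (adjusted p = 0.211) and 0.90 ± 0.37 with the combination (adjusted p = 0.171), none past the threshold. Without control array C these were -0.04, 0.54 and 0.53; the givinostat difference was 0.10 without givinostat array B and 0.64 without givinostat array C.

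ITGA6, the alpha chain of a laminin receptor, had 3 probes, and 1 of them was detected on 1 control array, the only detection. ICAM3, the ligand of LFA-1 on resting leukocytes, was detected on no array, with group means of 5.50 with givinostat, 5.63 with sorafenib, 5.53 with the combination and 5.73 in control cells. Neither gene was called in the limma fit without a filter, where the adjusted p of their probes was between 0.638 and 0.996. A change that stayed below the lowest detected signal was not detectable in either gene.

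**Figure D3:**
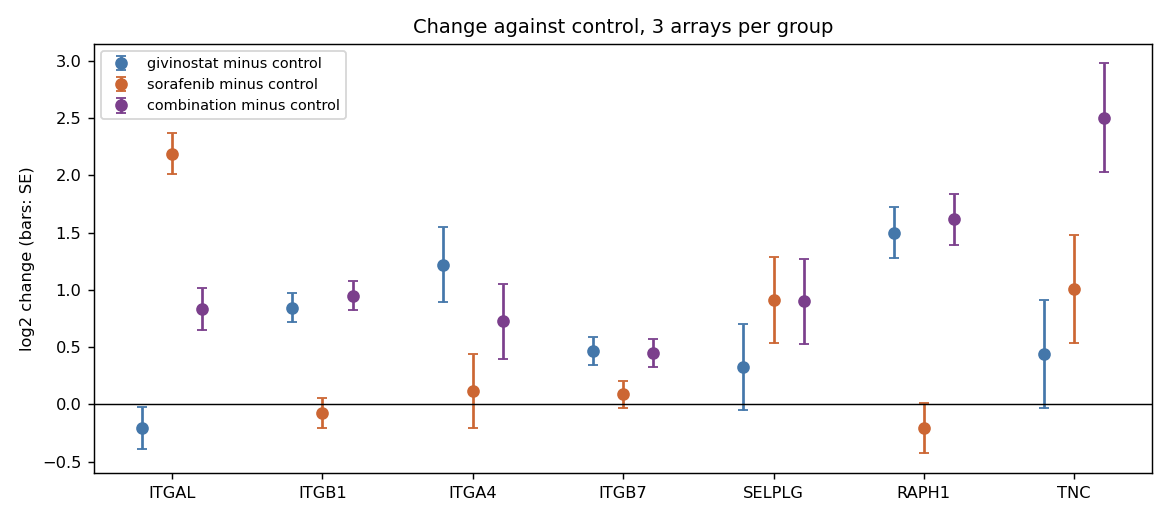
Difference from control in log2 normalized intensity (y axis) for the 7 genes with a kept probe, with 1 point for each drug treatment and bars of 1 SE. ITGB1 and RAPH1 differ with givinostat and with the combination but lie near 0 with sorafenib, ITGAL is highest with sorafenib, and TNC with the combination.

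Counted by call, the givinostat comparison had 2 of the 7 tested genes higher, ITGB1 and RAPH1, and 0 lower; over all 8079 genes 0.0743% were called higher and 0.0124% lower. Sorafenib had 1 higher, ITGAL, and 0 lower, against 1.94% and 1.44% of all genes. The combination had 4 higher against control (ITGAL, ITGB1, RAPH1 and TNC) and 0 lower, against 4.02% and 2.97%. Against givinostat alone the combination had ITGAL higher and 0 genes lower, against 0.953% and 0.73% of all genes. Against sorafenib alone it had ITGB1 and RAPH1 higher and ITGAL lower, against 0.186% and 0.173%. All of these calls fell on the 4 genes picked for such differences, so nothing is read from the counts.

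The 3 kept genes that were not picked, ITGA4, ITGB7 and SELPLG, had 0 calls in these comparisons in the fit without a block. The interaction, the combination's departure from the sum of both single-drug changes, was called for 0 of the 7 genes and for 0% of all genes by limma; 473 of the 8079 had an unadjusted p under 0.05. The comparisons against control share the control arrays, and those with the combination share its arrays.

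For each picked gene, the 3 genes with the most similar pattern were taken by the root mean square difference of their centred log2 values over the 12 arrays. ITGAL was nearest to CDC14B (0.365), a phosphatase gene, CSNK1G1 (0.413), a casein kinase, and NINJ2 (0.426), a cell surface adhesion protein, against a median of 1.00 over all genes. CDC14B differed from control by 1.86 with sorafenib and 1.21 with the combination, and by -0.14 with givinostat. ITGB1 was nearest to CTNNAL1 (0.142), an alpha-catenin relative, EFR3B (0.164) and the repressor gene GFI1 (0.199), against a median of 0.564.

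RAPH1 was nearest to ETV5 (0.220), an ETS transcription factor, ELAPOR2 (0.280) and ANKRD22 (0.282), against a median of 0.919. ETV5 differed from control by 1.61 with givinostat, -0.40 with sorafenib and 1.62 with the combination. TNC was less closely matched: DDC, which encodes dopa decarboxylase, stood at 0.534, LINC01727 at 0.579 and SH3RF2 at 0.584, against a median of 1.14. These are likenesses over 12 arrays that share their 4 groups, and no test was made of them.

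The wider adhesion machinery was followed in 8 lists of 140 genes, of which 63 had a kept probe. With givinostat 0 of the 63 were called in either direction by limma, and 7 had an unadjusted p under 0.05, beside 1042 of all 8079 genes. With sorafenib 3 were higher and 0 lower, beside 1.94% and 1.44% of all genes. With the combination against control 7 were higher and 0 lower, beside 4.02% and 2.97%. Against givinostat alone the combination had 1 higher and 0 lower, beside 0.953% and 0.73% of all genes. Against sorafenib alone it had 0 in either direction, beside 0.186% higher and 0.173% lower of all genes. In that comparison 16 of 63 had an unadjusted p under 0.05 (limma), beside 1259 of all 8079 genes. When the letter entered as a block, over the arrays other than the combination, 2 list genes were called with givinostat (CD47 and SKAP2), beside 146 of all 8079 genes. That fit called 7 list genes higher with sorafenib (ITGAE, TLN2, RASGRP2, RAPGEF1, SKAP2, SHARPIN and CYFIP2) and 1 lower, the actin cross-linker gene ACTN4, beside 714 of all genes. ACTN4 differed by -0.51 ± 0.14 without the block (adjusted p = 0.0782).

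The other integrin chains gave no call. ITGA3, ITGA5, ITGAE, ITGAV and ITGAX were the tested alpha chains of 15 listed, and their differences from control lay between -0.41 and 0.44 with givinostat, between -0.37 and 0.57 with sorafenib and between -0.24 and 0.41 with the combination. ITGB5 was the 1 tested beta chain of 5, at -0.24 with givinostat, 0.77 with sorafenib (adjusted p = 0.121) and -0.09 with the combination. With the letter as a block ITGAE, the alpha chain that pairs with ITGB7, was among the genes called with sorafenib, at 0.57 ± 0.25 in the fit without the block (adjusted p = 0.241). The 5 tested immunoglobulin-family receptors and ligands (ICAM2, CD58, CD2, JAM2 and CD47) had 0 calls in the fit without the block. CD47 differed there by 0.76 ± 0.15 with givinostat (adjusted p = 0.0713, limma). It was called with givinostat with the letter as a block and without background correction.

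The list of activation from inside the cell held all 3 genes called with sorafenib. RASGRP2, an exchange factor that loads Rap1, gave 7.20, 7.46 and 7.65 with givinostat, 8.48, 8.68 and 8.86 with sorafenib, 8.40, 7.23 and 8.05 with the combination, and 7.63, 7.69 and 7.34 in control cells. Its 3 sorafenib arrays lay above all other arrays, and it rose by 1.12 ± 0.26 over control (2.17-fold, adjusted p = 0.0449, limma). With the combination it differed from control by 0.34 ± 0.26 (adjusted p = 0.461), with array B below every control array.

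RAPGEF1, another Rap1 exchange factor, gave 12.20, 12.03 and 12.42 with givinostat, 13.21, 12.84 and 13.01 with sorafenib, 13.06, 12.92 and 12.77 with the combination, and 12.10, 12.02 and 12.13 in control cells. All 6 arrays with sorafenib lay above the 6 without it. RAPGEF1 rose by 0.93 ± 0.14 with sorafenib (1.91-fold, adjusted p = 0.00817, limma) and by 0.83 ± 0.14 with the combination (1.78-fold, adjusted p = 0.00943, limma). The combination was also 0.70 ± 0.14 above givinostat (adjusted p = 0.0388, limma). Its calls against control held without any 1 array; the call against givinostat was lost without 9 of the 12, and held without givinostat array C and sorafenib arrays A and B.

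SKAP2, an adaptor of integrin activation in leukocytes, gave 9.98, 10.26 and 10.34 with givinostat, 9.97, 10.01 and 9.75 with sorafenib, 10.13, 10.44 and 10.15 with the combination, and 9.34, 9.27 and 9.32 in control cells. Each treated array lay above the control arrays. The rise was 0.60 ± 0.14 with sorafenib (adjusted p = 0.0449) and 0.93 ± 0.14 with the combination (adjusted p = 0.00482), both by limma. With givinostat the difference was 0.88 ± 0.14 (adjusted p = 0.0521).

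TLN2, a talin, rose by 0.96 ± 0.22 with the combination (1.95-fold, adjusted p = 0.0271, limma) and differed by 0.88 ± 0.22 with sorafenib (adjusted p = 0.0563). TLN1, the main talin of leukocytes, differed by 0.04 with the combination (adjusted p = 0.884) and by -0.30 with sorafenib (adjusted p = 0.223), and FERMT3, the leukocyte kindlin, by -0.15 and 0.24. Of the 15 tested genes of this list 11 had a positive difference with sorafenib, and the median was 0.44, beside 0.00 over all genes. Among them 3 were called higher with sorafenib, beside 1.94% of all genes. With the combination 12 were positive, and the median was 0.34, beside -0.02. Called higher were 3 (SKAP2, TLN2 and RAPGEF1), beside 4.02% of all genes. With givinostat 10 were positive, the median was 0.13 and 0 were called, beside 0.0743% of all genes called higher. The list was chosen with earlier results of these data known, so these counts are a description.

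The RASGRP2 call with sorafenib was lost without any 1 of 10 of the 12 arrays and held only without combination array A or B. The SKAP2 call was lost without any 1 of 9, and held without givinostat array A and combination arrays A and B. The count of list genes called with sorafenib was 1, RAPGEF1, without any control or sorafenib array, without givinostat array B and without combination array C. Calls over all 8079 genes fell as well, from 157 higher and 116 lower with all 12 arrays. They were 125, 85 and 70 without control arrays A, B and C, and 120, 98 and 71 without sorafenib arrays A, B and C. Without givinostat array B they were 166, and without combination array C 142. The list count was 2 without givinostat array C (179 of all genes), where TLN2 was called beside RAPGEF1. It was 3 without givinostat array A (213 of all genes), where TLN2 was called and RASGRP2 was not. In the fit with the letter as a block TLN2 and SHARPIN joined RASGRP2, RAPGEF1 and SKAP2 among the genes of this list called with sorafenib. Without background correction the sorafenib differences were 0.43 for RASGRP2 and 0.37 for SKAP2, and both were called.

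**Figure D4:**
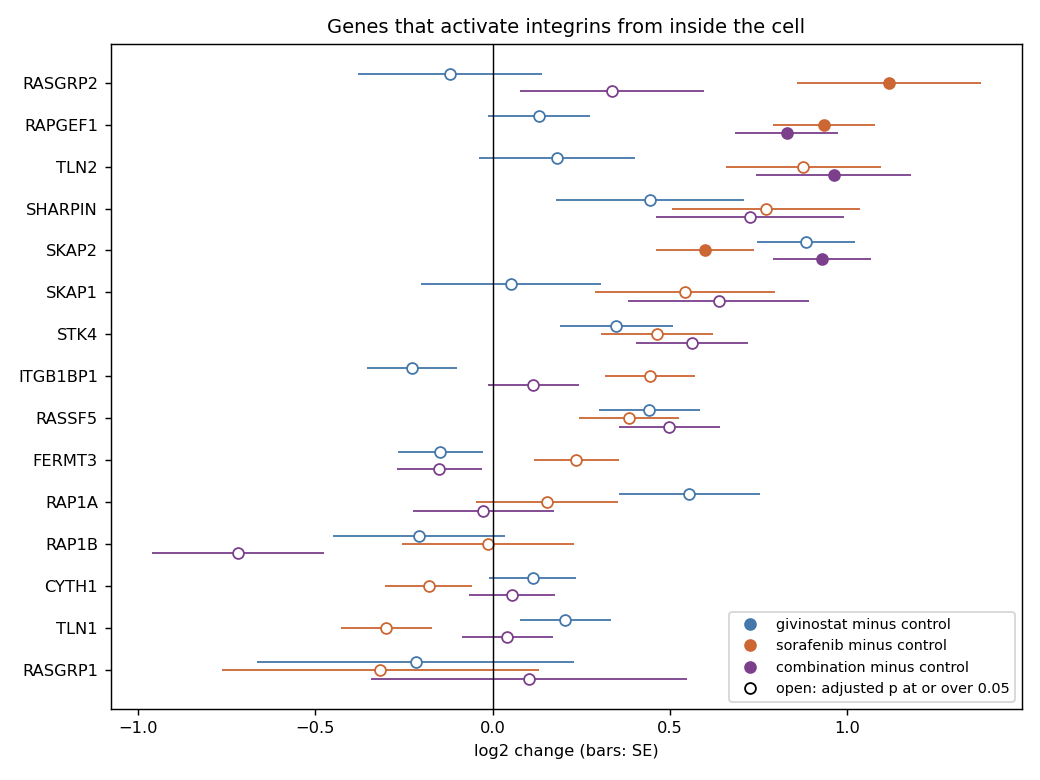
Difference from control in log2 normalized intensity (x axis) of the 15 tested genes of integrin activation from inside the cell, ordered by the sorafenib difference, for givinostat, sorafenib and the combination. Bars are 1 SE and filled points are genes with an adjusted p under 0.05. RASGRP2, RAPGEF1 and SKAP2 are filled with sorafenib, and SKAP2, TLN2 and RAPGEF1 with the combination.

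Beyond that list, 4 genes rose with the combination. FYN, a Src-family kinase that acts below integrins, gave 6.12, 6.72 and 7.26 with givinostat, 6.47, 6.83 and 6.59 with sorafenib, 7.39, 7.84 and 7.62 with the combination, and 6.41, 6.16 and 6.04 in control cells. It was detected on all 3 combination arrays and no control array, and was at least 1.77-fold higher (adjusted p = 0.0099, limma). Its probe was kept only through the combination group; with no filter, over 18852 genes, the adjusted p was 0.0271 (limma). The combination arrays lay above every other array, and without background correction the difference was 0.39, still called.

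LAMC1, the gamma-1 laminin chain and the 1 tested gene of 25 listed matrix ligands, gave 10.73, 10.94 and 10.94 with givinostat, 10.62, 10.64 and 10.22 with sorafenib, 11.12, 11.16 and 11.23 with the combination, and 10.21, 10.04 and 10.44 in control cells. It rose by 0.94 ± 0.15 (1.92-fold, adjusted p = 0.00684, limma), with all combination arrays above all others, as for TNC. CYFIP2, a subunit of the WAVE complex that branches actin at the leading edge, rose by 0.92 ± 0.21 (1.89-fold, adjusted p = 0.0277, limma). With sorafenib alone CYFIP2 differed from control by 0.70 ± 0.21 (adjusted p = 0.0972, limma). The combination differed from sorafenib by only 0.21 ± 0.21 (adjusted p = 0.676, limma). CYFIP2 was the only 1 of 15 tested lamellipodium genes called with the combination against control, beside 4.02% of all genes called higher. VASP and EVL, which bind lamellipodin, differed by 0.05 (adjusted p = 0.961) and 0.09 (adjusted p = 0.876).

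TPST2, which sulfates tyrosines of PSGL-1, rose by 0.60 ± 0.16 with the combination (1.52-fold, adjusted p = 0.0482, limma). With sorafenib alone TPST2 differed from control by 0.48 ± 0.16 (adjusted p = 0.132, limma). The combination differed from sorafenib by only 0.12 ± 0.16 (adjusted p = 0.761, limma). TPST2 was the 1 call with the combination against control among 7 tested selectin-side genes, beside 4.02% of all genes called higher. Nothing about the selectin or lamellipodium list is read from 1 call. FUT7, which makes the selectin-binding sugar, differed by 0.05 (adjusted p = 0.957) and GCNT1 by 0.09 (adjusted p = 0.819). The count of list genes called with the combination was lowest, 4, without combination array C. RAPGEF1, SKAP2, FYN and LAMC1 were then called, beside 285 of all 8079 genes. With all 12 arrays 325 of all genes were higher and 240 lower. TPST2 lost its call without all but 1 of the 12 arrays, control array A, and TLN2 and CYFIP2 without 4 of the 12 each: combination array B or C or control array A for both, control array C for TLN2 and control array B for CYFIP2.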

How the data were processed

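Total RNA of 12 samples was hybridised to Illumina bead arrays and read with BeadStudio (version not given), per the submitters' processing notes. The deposited raw table holds 1 average intensity per probe and array, with no normalization, and a deposited fraction headed as a detection p-value, which was taken as 1 minus that p since brighter probes had higher values. The neqc function (limma 3.58.1, R 4.3.3, offset 16) corrected the background, quantile normalized the arrays and gave log2 values. Probes detected at p under 0.05 throughout a group were kept: 11801 of 48803. In the platform annotation 28098 probes had 1 symbol, 13 several and 20692 none, and 0 symbols changed on matching to RefSeq. The brightest kept probe stood for each of 8079 genes. The deposited series matrix, intensities on a linear scale that look quantile normalized, served as an alternative.

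All groups shared 1 limma fit (8 residual degrees of freedom). The scripts were tested on simulated data. The genes and lists were chosen with earlier results of these data known. Named were all 10 genes, up to 3 called genes per list and comparison with the largest change, and the 3 nearest patterns of each picked gene; other named genes were chosen after their values were seen. Deviations of same-letter arrays correlated at 0.18 to 0.41 among givinostat, sorafenib and control (9 pairs), so the letter was taken as a pairing there, from the data and not the labels. With combination arrays the range was -0.14 to 0.36 (9 pairs). Combination array A correlated with the other A arrays at 0.31 to 0.36, but arrays B and C at -0.14 to 0.14. The letter was therefore not taken as a pairing for the combination. The number of arrays limits the precision. Probe positions were not used here.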

Additional observations from a re-analysis of the deposited data

How the results depend on the processing

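Counts of called genes are given for the 7 kept adhesion genes and for the 63 list genes, except where another set is named. No called value changed sign under any alternative; values that were not called and changed sign were not counted as reversals. Array median scaling, which moved the median change of all genes by up to 0.464 and left 8 to 40 genes called in any comparison of groups, gave 0, 1, 1, 1 and 0 of the 7 genes (givinostat, sorafenib and combination against control, then combination against givinostat and sorafenib) and 0 list genes in each; relative to that shift all 7 genes kept their direction except SELPLG between combination and sorafenib (0.17, against -0.01). With no filter on dim probes the fit held all 10 adhesion genes and 133 list genes. It gave 0, 1, 3, 0 and 3 of those 10 and 0, 1, 4, 0 and 0 of those 133. It called 1, 65, 177, 33 and 8 of all 18852 genes. Fitting only the arrays compared gave 0, 1, 3, 0 and 0 of the 7 genes, and 0, 1, 4, 0 and 0 of the 63 list genes. Of all 8079 genes it called 0, 35, 144, 5 and 0. Requiring detection p under 0.01 on all 12 arrays removed ITGAL, TNC and SELPLG by construction. It gave 2, 0, 3, 0 and 2 of the genes left (ITGB1, ITGA4, ITGB7 and RAPH1), beside 24, 397, 672, 267 and 45 of all 6030 genes. For givinostat 2 list genes were called (CD47 and SKAP2). No background correction called 74, 475, 807, 365 and 96 of all 8079 genes, and the series matrix values 76, 478, 807, 364 and 97. With givinostat, cyclic loess called 18 of all genes and normexp without detection p 30. No background correction and the series matrix values gave 3, 1, 4, 1 and 3 of the genes and 3, 7, 10, 5 and 2 list genes; ITGB7 was then called with givinostat and the combination, ITGAL was not called between combination and control, TNC and not ITGAL was called between combination and givinostat, and ACTN4 was called lower with sorafenib, with RAPH1 differing from control by 0.91 and ITGAL by 0.23 with the combination; cyclic loess gave 1 list gene for givinostat and normexp without detection p gave 2. The replicate block over all 12 arrays gave 3, 1, 6, 2 and 3 of the genes and 3, 9, 11, 8 and 1 list genes, where 166, 706, 1068, 590 and 175 of all 8079 genes were called; over the arrays other than the combination it gave 3 and 1 of the genes and 2 and 8 list genes for givinostat and sorafenib. Under the block over all arrays ITGA4 was called with givinostat (adjusted p = 0.0088) and the combination (adjusted p = 0.0132), and ITGB7 with the combination (adjusted p = 0.0264). Letters did not pair combination arrays B and C with the other groups. Leaving out 1 array gave 0 to 2, 1, 2 to 5, 0 to 2 and 0 to 3 of the genes, and 0 to 1, 1 to 4, 4 to 7, 0 to 2 and 0 list genes. Of all 8079 genes it left 0 to 21, 70 to 260, 199 to 543, 14 to 138 and 0 to 36 called. The counts of the 7 genes, 4 of them chosen by these values, fell to 0 with givinostat without any array except givinostat A (2) and combination A (1). All 8079 genes then had 0 to 3 calls with givinostat, or 21 without givinostat A. With the combination the count fell to 2 without control C, where 217 of all genes were called. Against givinostat it fell to 0 without givinostat A or B or combination A or C (98, 14, 55 and 48 of all genes). It was 2 there without sorafenib A (119 of all genes). Against sorafenib it fell to 0 without sorafenib A or C or combination B, where 0 of all genes were called. Interaction calls were 0 under each alternative that gave a value. Of the 7 genes only ITGB1 had a second kept probe to refit. Signals near background limit ITGAL, ITGB2, TNC, SELPLG, ITGA6, ICAM3 and FYN: their fold changes depend on the background correction, and a change below the lowest detected signal was not detectable. Fold changes of genes detected on all 12 arrays can depend on it too: those of RASGRP2 and RAPH1 were smaller without background correction.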
